A study of Mus musculus with 9 samples.

Results

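Transcripts of 10 genes for carbonic anhydrases, water channels and epithelial ion transport were followed in mouse mammary aggregates: Car2, Car9, Car12, Aqp3, Aqp5, Cftr, Slc12a2, Slc4a11, Atp1b1 and Clca3a2. They were taken by name from the 54456 gene names of the count table, and all 10 were found and passed the filter on low counts. The genes were chosen by earlier results on the differences between these same libraries, so their differences are a description, and the adjusted p-values printed beside them belong to the fit over all genes and are no independent support. RNA was measured in 3 kinds of aggregate of wild-type mammary epithelial cells sorted by flow cytometry, with 3 libraries each: mixed aggregates from a 50% mixture of basal and luminal cells, aggregates of luminal cells alone, and aggregates of basal cells alone. All of them lay in 80% Matrigel near heparin sulfate beads of 100 to 150 µm that had been soaked in FGF10 at 100 µg/mL, and migrated for 56 h per the treatment label (55 h per the titles). The labels give no strain, age, animal number or aggregate without FGF10, so every value sets 1 kind of aggregate beside another under FGF10, and p-values measure only the spread between these libraries, which may be technical.

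Carbonic anhydrases turn carbon dioxide and water into bicarbonate and protons. Car2 works inside the cell, and the enzymes of Car9 and Car12 sit in the plasma membrane with their active sites outside. Epithelia move fluid by setting up ion gradients that water follows: the sodium pump on the basolateral side drives sodium, potassium and chloride into the cell through the cotransporter NKCC1 (Slc12a2), chloride leaves through apical channels such as CFTR, and aquaporins let water through. In the mammary gland luminal cells face the lumen, and contractile basal cells surround them.

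The libraries held 15585324 to 19164405 counts, and a count of 3 corresponded to 0.152 to 0.186 CPM (counts scaled to library size with TMM factors), a limit that covers counting error only. The column names of the table carry 3 code prefixes, here called code series, whose meaning the headers do not give. Series A held the mixed libraries and basal 2, series B held luminal 1, basal 1 and basal 3, and series C held luminal 2 and 3. With the series as a term, mixed is compared with basal within series A (1 basal library) and luminal with basal within series B (1 luminal library). In each of these an arm of 1 library is assumed to vary like the other groups, so its p-value rests on a borrowed spread. Mixed and luminal libraries shared none of the 3 series. Their difference with the series as a term is the mixed minus basal value less the luminal minus basal value. It is reached only through basal libraries of different series. Between mixed and luminal libraries themselves series and kind of aggregate cannot be told apart. Libraries of series A stood apart in red cell and some immune transcripts: 4 alpha and beta globin genes summed to 32.0, 36.0 and 52.5 CPM in mixed 1 to 3 and to 23.7 CPM in basal 2, against at most 0.162 CPM in the other 5 libraries. The 8 immune markers summed to 46.2 to 65.6 CPM in mixed, 22.3 to 52.9 CPM in luminal and 4.48 to 50.8 CPM in basal libraries. Of them the macrophage marker Cd68 made up 20.9 to 50.1 CPM in luminal libraries, while Lyz2 (8.29 to 33.6 CPM) and Cd74 (26.2 to 36.3 CPM) in series A lay above all other libraries (at most 0.152 and 1.87 CPM), and Cd79a and C1qa were at 0 counts in all luminal libraries. Between the 2 pure kinds the labels fitted the epithelial markers. The 9 basal markers summed to 6102 to 7259.5 CPM in mixed, 1406 to 2756 CPM in luminal and 9483 to 10776 CPM in basal libraries. The 6 luminal markers summed to 7369.7 to 9075 CPM, 5660.3 to 8721 CPM and 2681 to 3039 CPM in the same order of groups. Single keratins weighed on these sums. Krt19 had means of 4533 CPM in mixed, 1334 CPM in luminal and 855 CPM in basal aggregates. The mean of every other luminal marker was lower in mixed than in luminal aggregates. In luminal libraries Krt14 made up 1283 to 2551 CPM of the basal sum. In these bulk libraries fewer cells of a type and less RNA per cell cannot be told apart.

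**Figure D1:**
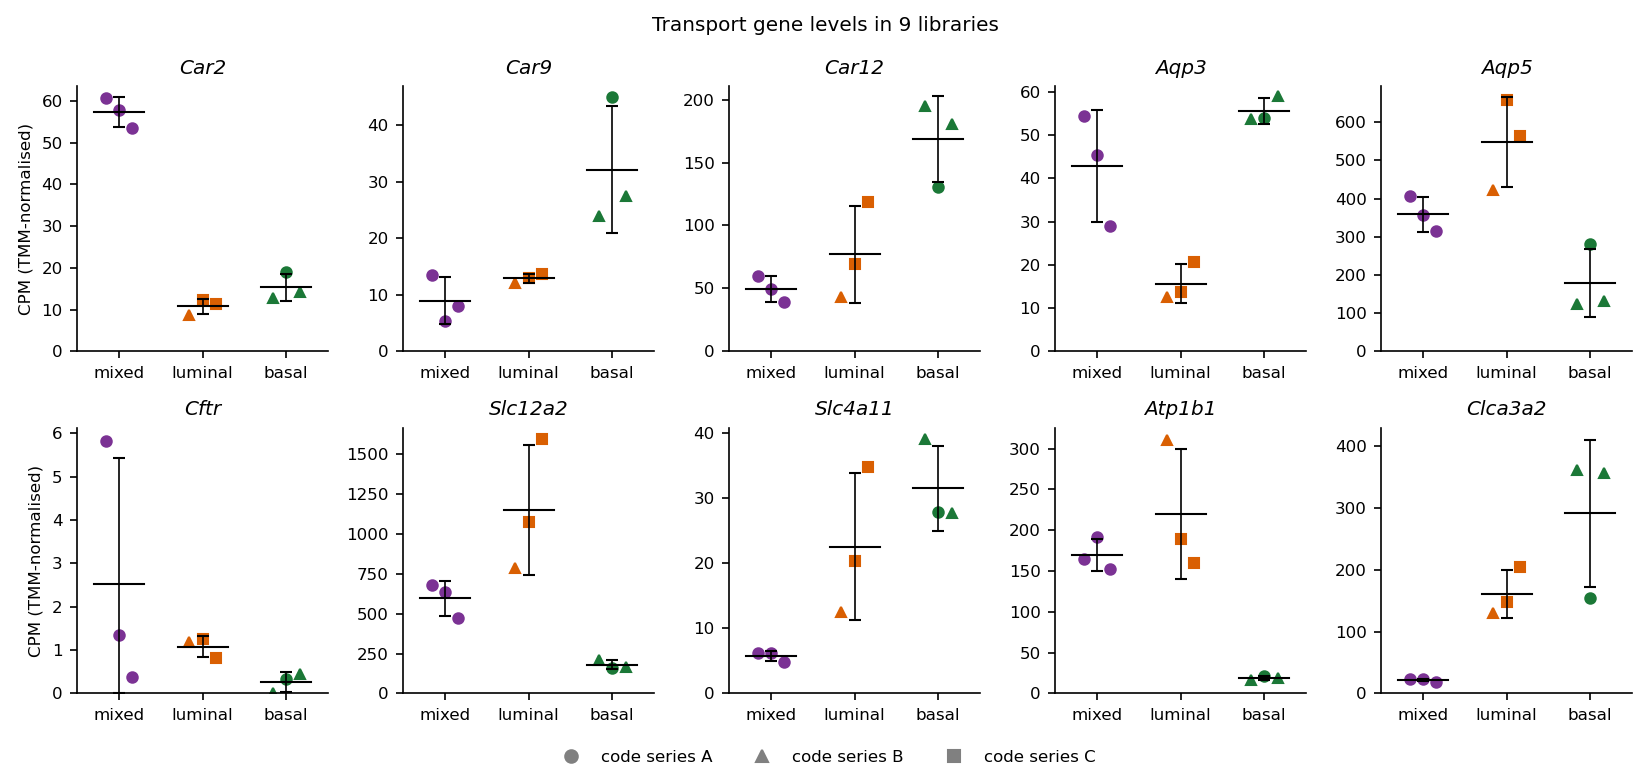
TMM-normalised CPM of the 10 transport genes (y axis, linear from 0) in mixed, luminal and basal aggregates, with 1 point per library, its code series as the symbol, and the mean ± SD as lines (SD bars cut at 0). Car2 is highest in the mixed libraries (53.6 to 60.7 CPM), Clca3a2 is lowest there (19.3 to 23.2 CPM), and Atp1b1 and Slc12a2 are lowest in the basal libraries.

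Car2, the cytosolic carbonic anhydrase II gene, stood highest where both cell types were present. It had 60.7, 58.0 and 53.6 CPM in mixed 1, 2 and 3, 8.84, 12.2 and 11.3 CPM in luminal 1, 2 and 3, and 12.7, 19.0 and 14.4 CPM in basal 1, 2 and 3. Every mixed library lay above every library of either pure kind. The difference was 1.90 ± 0.22 on the log2 scale (SE) between mixed and basal aggregates (adjusted p = 0.00029, edgeR quasi-likelihood) and 2.41 ± 0.22 between mixed and luminal aggregates (adjusted p = 2.5e-05). Luminal and basal ranges of Car2 did not overlap either, but the difference of -0.51 ± 0.22 was not called (adjusted p = 0.11). The mixed mean of 57.4 ± 3.56 CPM (SD, n = 3) was 4.40 times the midpoint of the luminal and basal means, 13.1 CPM. Within series A the difference between mixed aggregates and basal 2 was 1.60 ± 0.27 (adjusted p = 0.0096). Car2 is also an enzyme of red cells. The 6 erythroid markers summed to 36.6 to 55.4 CPM in mixed, 1.74 to 3.62 CPM in luminal and 2.81 to 24.0 CPM in basal libraries, with Hba-a2 and Hbb-bt at 0 counts in all luminal libraries. Basal 2, with globin genes at 23.7 CPM, had 19.0 CPM of Car2, the highest of the 6 pure libraries. This excess over basal 1 and 3 depended on the scaling. As TPM, the length-scaled measure described below, Car2 was nearly equal in the basal libraries (16.2 ± 0.236 TPM, mean ± SD). The part of red cell RNA in the level of Car2 was not tested.

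In a test of mixed aggregates against both pure kinds at once, which needs both differences in 1 direction and adjusts the larger of their p-values over all genes, Car2 was called above both (adjusted p = 0.0097) and Clca3a2 below both (adjusted p = 0.0087). Of all tested genes 0.0886% were called, 0.0499% above and 0.0388% below. By library ranges alone mixed aggregates lay above both kinds for Car2 (5.02% of all genes) and below both for Slc4a11 and Clca3a2 (7.20%), 12.2% of all genes lying on either side. Slc4a11 missed the threshold (adjusted p = 0.077). Both calls ended without some of the single libraries. The adjusted p of Car2 was 0.082, 0.081, 0.053 and 0.099 without mixed 1, mixed 2, mixed 3 and basal 3, and that of Clca3a2 was 0.082, 0.081 and 0.074 without mixed 1, 2 and 3. Slc4a11 passed without luminal 1 (0.038) and without basal 2 (0.014). With the code series as a term edgeR called 0 genes above and 0 below both (328 and 217 at an unadjusted p under 0.05), and the adjusted p was 0.41 for Car2 and 0.68 for Clca3a2. Without that term DESeq2 called 145 above and 477 below.

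Car9 and Car12 encode the membrane-bound carbonic anhydrases IX and XII, and both were highest in basal aggregates. Car9 had 13.4, 5.29 and 8.05 CPM in mixed 1 to 3, 12.02, 12.9 and 13.7 CPM in luminal 1 to 3, and 24.0, 44.9 and 27.4 CPM in basal 1 to 3. The mixed and luminal ranges overlapped, and both lay below all basal libraries, of which basal 2 was the highest. Car9 was lower in mixed than in basal aggregates by a log2 difference of -1.84 ± 0.35 (adjusted p = 0.0066, and -2.33 ± 0.41 within series A). Between luminal and basal aggregates it differed by -1.32 ± 0.35 (adjusted p = 0.015), a call that ended within series B (-1.10 ± 0.50, adjusted p = 0.21), without luminal 1 (-1.26, adjusted p = 0.057) and without basal 2 (-1.002, adjusted p = 0.055). Car12 had 60.1, 49.5 and 39.6 CPM in mixed, 43.2, 69.3 and 119 CPM in luminal and 195, 130.3 and 181 CPM in basal 1 to 3. Here basal 2 was the lowest basal library, and all 3 still lay above every mixed and luminal library. Its log2 difference was -1.76 ± 0.33 between mixed and basal aggregates (adjusted p = 0.0055, and -1.39 ± 0.29 within series A) and -1.13 ± 0.32 between luminal and basal aggregates (adjusted p = 0.021, and -2.12 ± 0.37 within series B). The call between luminal and basal aggregates ended without luminal 1 (-0.84, adjusted p = 0.068), luminal 2 (-1.06, 0.075), basal 1 (-0.99, 0.067) or basal 3 (-1.08, 0.06). Between mixed and luminal aggregates neither gene was called (-0.53 ± 0.35 for Car9 and -0.63 ± 0.32 for Car12), but Car12 passed without luminal 1 (-0.93, adjusted p = 0.044), and its sign turned to 0.73 ± 0.47 with the series as a term. The mixed means of Car9 and Car12 were 0.397 and 0.405 times the midpoint of the luminal and basal means. For Car9, 9.29% of exon bases are shared with another gene name, Gm12454, and reads were counted without strand.

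Both genes are known targets of the hypoxia-inducible factors (HIF) in human cells, whose binding sites hold the core ACGTG or GCGTG. The promoters of this pair are shown because both genes belong to this class of targets and were called lower in mixed aggregates beside basal ones. They are RefSeq sequences of GRCm38.p6, from 250 bases before to 50 bases after the annotated start (Car9, chr4:43506776-43507075, plus strand, and Car12, chr9:66713436-66713735, plus strand), written from 5′ to 3′ with any match to either core, on either strand, in capitals.
Car9: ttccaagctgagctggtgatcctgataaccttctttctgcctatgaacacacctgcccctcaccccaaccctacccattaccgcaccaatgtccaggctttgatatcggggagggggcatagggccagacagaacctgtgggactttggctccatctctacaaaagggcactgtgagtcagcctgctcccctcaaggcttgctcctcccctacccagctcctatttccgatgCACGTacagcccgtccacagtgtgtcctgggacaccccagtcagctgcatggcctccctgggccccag
Car12: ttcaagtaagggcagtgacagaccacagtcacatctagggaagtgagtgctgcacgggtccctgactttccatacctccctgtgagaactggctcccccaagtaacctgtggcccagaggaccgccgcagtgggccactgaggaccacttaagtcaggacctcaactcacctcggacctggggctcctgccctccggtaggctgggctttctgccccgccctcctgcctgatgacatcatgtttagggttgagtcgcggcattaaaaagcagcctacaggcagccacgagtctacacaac
The Car9 promoter held 1 match, CACGT, which is ACGTG on the opposite strand, beginning 18 bases before the start. No match was found in these 300 bases of Car12. Of 32851 promoters of this length 19.6% held ACGTG, 32.4% held GCGTG and 43.8% held one or the other on either strand, so a match is common and describes the sequence only. Promoters were at hand for 7 of the 10 genes, namely Car9, Car12, Aqp3, Aqp5, Cftr, Atp1b1 and Clca3a2, and 4 of these held a match: Car9, Aqp5, Cftr and Atp1b1.

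The wider list of hypoxia response genes was mostly higher in luminal aggregates. Like the other gene lists it was chosen with earlier results of these data known, so its counts are a description. Of 24, luminal aggregates had 15 higher and 1 lower than basal ones, where 12.8% and 14.4% of all genes were called. The median log2 difference was 0.88 beside -0.02 over all genes. Adm, a vasodilator peptide gene, stood at 17.04 ± 2.17 CPM in luminal and 1.59 ± 0.582 CPM in basal aggregates (log2 3.41 ± 0.56), and Pfkfb3, a glycolytic regulator, differed by 3.35 ± 0.39. Ddit4, a stress-induced inhibitor of mTOR signalling, was the 1 lower gene (-0.89 ± 0.24). Within series B 9 of the 15 remained higher, Adm and Pfkfb3 among them, and Ddit4 was not called (adjusted p = 0.057). Between mixed and basal aggregates 6 were higher and 3 lower, where 6.39% and 7.33% of all genes were called. Among the higher were the hexokinase gene Hk2 (2.31 ± 0.25) and the mitophagy receptor gene Bnip3 (1.70 ± 0.22). Among the lower were Ndrg1 (-0.81 ± 0.16) and Ddit4 (-1.46 ± 0.24). Bnip3 had its highest mean in luminal aggregates, with 29.9 ± 1.85 CPM in mixed, 60.4 ± 10.6 CPM in luminal and 9.19 ± 1.96 CPM in basal ones. Within series A 3 of the 6 remained higher, Hk2 and Bnip3 among them, and none was called lower. Between mixed and luminal aggregates 14 were lower and none higher, with the angiogenic factor gene Vegfa at 31.4 ± 1.57 CPM in mixed and 119 ± 26.8 CPM in luminal aggregates (-1.93 ± 0.19), and with Adm at -2.64 ± 0.54. With the series as a term 1 of the 14 remained called, Vegfa (-2.07 ± 0.30, adjusted p = 0.0088). Of Bnip3 22.3% and of Ndrg1 8.43% of exon bases are shared with other gene names.

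Of 13 other carbonic anhydrase genes all were measured and 8 tested. Between luminal and basal aggregates 1 was higher and 2 lower, between mixed and basal 1 higher, and between mixed and luminal 1 higher and 1 lower. Of all genes 27.1%, 13.7% and 29.4% were called in either direction in these comparisons, so nothing is read from the counts. Car5b, a mitochondrial enzyme, stood at 16.5 ± 3.33 CPM in mixed, 23.3 ± 8.93 CPM in luminal and 7.19 ± 2.24 CPM in basal aggregates, and was higher in mixed (1.19 ± 0.34) and in luminal (1.69 ± 0.34) than in basal aggregates, but neither call held with the series as a term (1.70 and 0.86, adjusted p = 0.06 and 0.22). Car13, a cytosolic enzyme, was lower in luminal than in basal aggregates (-0.86 ± 0.28, adjusted p = 0.043, and -0.45 within series B, adjusted p = 0.59). Car8, a relative without the enzyme activity, was lower in mixed than in luminal aggregates (-1.45 ± 0.34, adjusted p = 0.34 with the series as a term).

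Car1, the cytosolic form known from red cells, followed the code series. It had 10.5, 13.6 and 10.99 CPM in mixed 1 to 3 and 11.2 CPM in basal 2, against at most 0.119 CPM in the other 5 libraries. These are the libraries with globin transcripts, and the part of red cell RNA in Car1 was not tested. The calls of Car1, above 0 for mixed minus luminal and below 0 for luminal minus basal (adjusted p = 0.017 and 0.044), rest on these libraries, and all 3 libraries of series B held 0 counts of it. Car6, the secreted enzyme, had 80.8, 69.5 and 127 CPM in mixed, 21.9, 62.0 and 98.2 CPM in luminal, and 0.101, 63.4 and 0.0574 CPM in basal 1 to 3. Basal 2 thus lay within the luminal values and below the mixed ones, and basal 1 and 3 lay near 0. No difference of Car6 was called over all libraries. With the series as a term luminal minus basal was 7.97 ± 0.63 (adjusted p = 6e-05), from luminal 1 against basal 1 and 3.

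**Figure D2:**
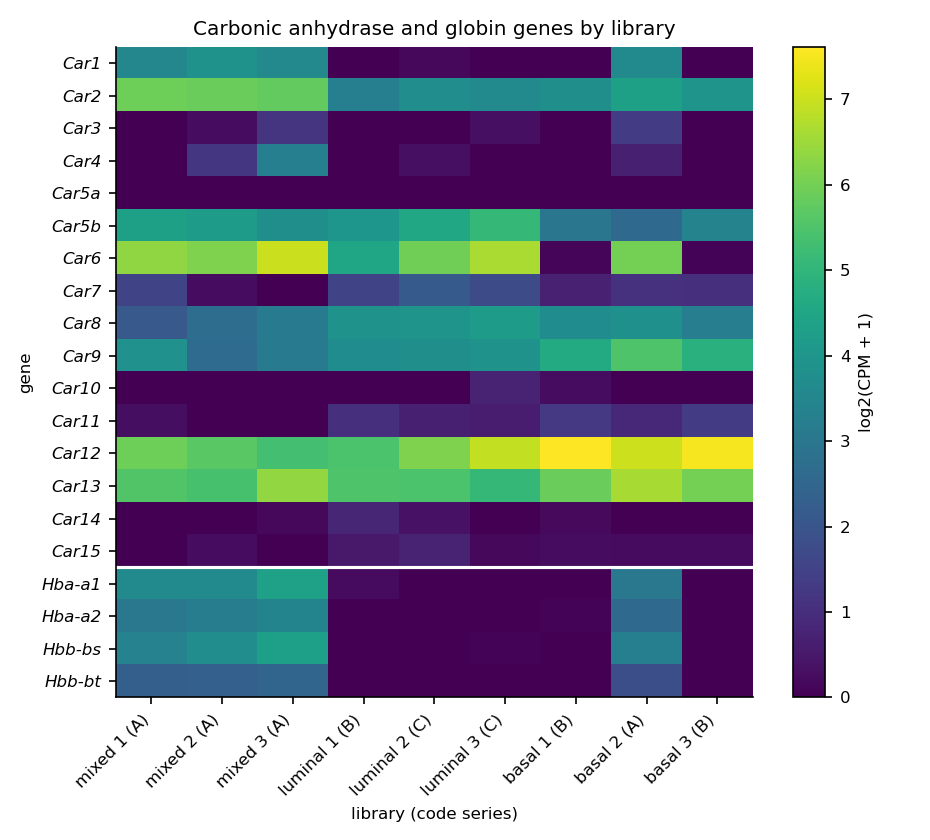
Levels of 16 carbonic anhydrase genes and 4 globin genes (rows) in 9 libraries (columns, with the code series in brackets), as log2(CPM + 1) in colour. Car1 and the globin genes are bright in the 4 libraries of series A and dark in the other 5, and Car6 is dark in basal 1 and 3.

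The 2 aquaporins of the set differed in opposite directions between luminal and basal aggregates. Aqp3, an aquaglyceroporin of basolateral membranes and of basal cells of stratified epithelia, had 54.3, 45.4 and 28.9 CPM in mixed, 12.6, 13.7 and 20.7 CPM in luminal, and 53.7, 53.9 and 59.0 CPM in basal 1 to 3. Luminal values lay below all others, and the mixed and basal ranges overlapped. The log2 difference was 1.45 ± 0.26 between mixed and luminal aggregates (adjusted p = 0.0025, and 1.83 ± 0.55 with adjusted p = 0.16 with the series as a term) and -1.82 ± 0.26 between luminal and basal aggregates (adjusted p = 0.00032, and -2.16 ± 0.43 within series B). It was not called between mixed and basal aggregates (-0.37 ± 0.25, adjusted p = 0.36). Aqp5, an apical water channel of glands, had 406, 357 and 314 CPM in mixed, 423, 657 and 563 CPM in luminal, and 125, 281 and 131 CPM in basal 1 to 3. The luminal libraries lay above the mixed and the mixed above the basal libraries, with basal 2 the nearest to the mixed values. Aqp5 was higher in luminal than in basal aggregates by 1.61 ± 0.30 (adjusted p = 0.002), and by 1.72 ± 0.20 among the libraries of series B. Between mixed and basal aggregates the difference of 1.00 ± 0.30 passed narrowly (adjusted p = 0.046). It was 0.35 ± 0.20 within series A (adjusted p = 0.41), it ended when any library but basal 2 was left out (0.82 to 1.08, adjusted p = 0.056 to 0.18), and it was 1.47 without basal 2. Between mixed and luminal aggregates the difference of -0.61 ± 0.30 was not called (adjusted p = 0.14), though it passed without basal 2 (-0.62, adjusted p = 0.016) and with the series as a term (-1.37 ± 0.28, adjusted p = 0.035). The mixed mean of 359 ± 46.2 CPM was 0.988 times the midpoint of the pure kinds for Aqp5, and 42.9 ± 12.9 CPM was 1.20 times the midpoint for Aqp3.

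Of 10 other aquaporin genes 5 were tested. Aqp9, an aquaglyceroporin that also carries glycerol and small solutes, stood at 18.1 ± 1.88 CPM in mixed, 1.73 ± 0.941 CPM in luminal and 17.9 ± 8.32 CPM in basal aggregates, and was called in mixed minus luminal (3.37 ± 0.48) and in luminal minus basal (-3.36 ± 0.48, or -2.47 for series B alone). Its values in the 4 series A libraries, 16.1 to 27.4 CPM, lay above those of the other 5. In mixed minus luminal the value with the series as a term was 1.87 (adjusted p = 0.36). No other aquaporin was called over all libraries. For series B alone Aqp8 differed by 4.15 ± 1.14 in luminal minus basal. That value rests on 20 counts in luminal 1 against 1 count each in basal 1 and basal 3, below the limit of 3 counts.

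Slc12a2 encodes NKCC1, the cotransporter that loads secretory cells with chloride. It had 681, 633 and 473 CPM in mixed, 785, 1073 and 1591 CPM in luminal, and 211, 158 and 168 CPM in basal 1 to 3. The 3 kinds of aggregate did not overlap. The log2 difference was 2.68 ± 0.27 between luminal and basal aggregates (adjusted p = 2e-05, and 2.05 ± 0.28 within series B) and 1.73 ± 0.26 between mixed and basal aggregates (adjusted p = 0.0016, and 1.91 ± 0.32 within series A). Between mixed and luminal aggregates it was -0.95 ± 0.26 (adjusted p = 0.018), a call that ended without mixed 3 (-0.82, adjusted p = 0.069), without luminal 3 (-0.65, adjusted p = 0.076) and with the series as a term (-0.14 ± 0.41, adjusted p = 0.96). The mixed mean was 0.896 times the midpoint of the pure kinds. Among 13 tested genes of other cation chloride cotransporters and their kinases, Stk39 (SPAK), a kinase that activates NKCC1, was higher in mixed (1.04 ± 0.19) and in luminal (1.10 ± 0.19) than in basal aggregates, as was the WNK kinase gene Wnk2 (1.36 ± 0.25 and 1.24 ± 0.25). The potassium chloride cotransporter gene Slc12a7 was lower in mixed than in basal aggregates (-1.27 ± 0.30), Slc12a4 was lower (-2.17 ± 0.59) and Wnk1 higher (0.83 ± 0.18) in mixed than in luminal aggregates, and with the series as a term none of these 3 was called (-0.73, 0.97 and 0.48). For Stk39 and Wnk2 the call against basal aggregates held for luminal but not for mixed aggregates with that term (adjusted p = 0.051 and 0.086 for mixed).

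Cftr, the gene of a chloride and bicarbonate channel activated through cyclic AMP, was close to the limit of detection. It had 102, 22 and 7 counts in mixed 1 to 3, 22, 21 and 13 counts in luminal 1 to 3, and 0, 6 and 8 counts in basal 1 to 3. Mixed 1, at 5.83 CPM, stood apart from mixed 2 and 3 at 1.35 and 0.381 CPM, the luminal libraries lay at 0.807 to 1.24 CPM, and no basal library exceeded 0.459 CPM. The luminal and basal ranges did not overlap, but no difference of Cftr was called (2.02 ± 1.19 between luminal and basal, 3.24 ± 1.22 between mixed and basal and 1.22 ± 1.11 between mixed and luminal aggregates). Without mixed 1 the last of these was -0.32, and mixed minus basal was called with no filter on low counts and by DESeq2 (3.21 and 3.22). At this depth a basal level of up to 0.152 CPM in basal 1 cannot be told from 0.

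Clca3a2 belongs to the CLCA family of secreted and membrane proteins that modulate calcium-activated chloride conductance. It had 23.2, 22.8 and 19.3 CPM in mixed, 130.3, 148 and 205 CPM in luminal, and 362, 154 and 357 CPM in basal 1 to 3. The mixed libraries agreed closely and lay below every pure library, and basal 2 fell within the luminal range. The mixed mean of 21.7 ± 2.15 CPM was 0.0962 times the midpoint of the pure kinds, 226 CPM, the lowest such ratio of the 10 genes. Mixed aggregates differed from basal aggregates by -3.74 ± 0.33 (adjusted p = 5.1e-05, and -2.82 ± 0.20 with adjusted p = 0.00019 within series A) and from luminal aggregates by -2.89 ± 0.32 (adjusted p = 8.6e-05). The comparison with luminal aggregates gave -1.36 ± 0.31 with the series as a term (adjusted p = 0.059). Between luminal and basal aggregates the difference of -0.86 ± 0.30 lay at the threshold (adjusted p = 0.051) and was -1.47 ± 0.25 within series B, where it compares 1 luminal library with 2 basal ones (adjusted p = 0.0038 with the borrowed spread). It passed without luminal 3 (-1.07, adjusted p = 0.041) and without basal 2 (-1.17, adjusted p = 0.001). Clca3a1, a close paralog, stood at 1.64 ± 1.41 CPM in mixed, 7.51 ± 2.46 CPM in luminal and 20.2 ± 12.2 CPM in basal aggregates, and was lower in mixed than in basal aggregates (-3.63 ± 0.81), but not within series A (-1.92, adjusted p = 0.31). Reads that align to several places were not counted, so the division of reads between these paralogs is uncertain. For Clca3a2, 6.06% of exon bases are shared with Gm43240.

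Of 19 tested genes of other chloride channels and CLCA proteins, Clic6, a chloride intracellular channel gene, differed most between luminal and basal aggregates among those the naming rule took. It stood at 122 ± 16.8 CPM in mixed, 646 ± 126 CPM in luminal and 7.55 ± 1.58 CPM in basal aggregates, with log2 differences of 4.01 ± 0.24, 6.42 ± 0.27 and -2.41 ± 0.22 for mixed against basal, luminal against basal and mixed against luminal. Ano1, a calcium-activated chloride channel gene, was higher in luminal than in basal aggregates (1.90 ± 0.27) and lower in mixed than in luminal aggregates (-1.52 ± 0.27, and -0.35 with the series as a term). Clic3 was higher in mixed aggregates than in basal (1.61 ± 0.33) and luminal ones (1.64 ± 0.34), but not with the series as a term (1.03 and 1.06, adjusted p = 0.16 and 0.46). In this list luminal aggregates had 4 genes higher and 3 lower than basal ones, where 12.8% and 14.4% of all genes were called. Mixed aggregates had 3 higher and 4 lower than basal ones (6.39% and 7.33% of all genes). They had 2 higher and 5 lower than luminal ones (15.2% and 14.2% of all genes). Ttyh2 and Ttyh3 were lower in luminal than in basal aggregates (-1.26 ± 0.42 and -0.96 ± 0.23), and for Ttyh2 mixed minus basal was -1.66 ± 0.42. Within series B they were -0.46 and -0.90 and neither was called (adjusted p = 0.68 and 0.15).

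Slc4a11, a member of the bicarbonate transporter family that carries protons and water rather than bicarbonate and is best known from corneal endothelium, had 6.17, 6.21 and 4.84 CPM in mixed, 12.5, 20.3 and 34.7 CPM in luminal, and 39.0, 27.8 and 27.6 CPM in basal 1 to 3. The mixed libraries lay below every pure library, and the luminal and basal ranges overlapped. The log2 difference was -2.45 ± 0.35 between mixed and basal aggregates (adjusted p = 0.0012, and -2.28 ± 0.35 within series A) and -1.97 ± 0.35 between mixed and luminal aggregates (adjusted p = 0.0023, and -0.86 ± 0.54 with adjusted p = 0.61 with the series as a term). Between luminal and basal aggregates it was -0.49 ± 0.33 (adjusted p = 0.33). The mixed mean was 0.213 times the midpoint of the pure kinds. Of 11 other tested bicarbonate and anion exchanger genes, Slc4a4, the sodium bicarbonate cotransporter NBCe1, was lower in mixed (-1.58 ± 0.35) and in luminal (-1.11 ± 0.34, and -0.45 within series B, not called) than in basal aggregates. Slc26a7 was higher in mixed than in basal aggregates (3.12 ± 0.74, adjusted p = 0.018, and 0.081 within series A). Slc26a11 was higher in luminal than in basal (1.64 ± 0.27) and lower in mixed than in luminal aggregates (-1.24 ± 0.26, and -0.62 with the series as a term, not called), and the sulfate transporter gene Slc26a2 was lower in luminal than in basal aggregates (-0.92 ± 0.24, and -0.45 within series B, not called).

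Atp1b1 encodes the beta 1 subunit of the sodium pump, which brings the catalytic alpha subunit to the membrane. It had 165, 191 and 152 CPM in mixed, 311, 189.8 and 159 CPM in luminal, and 16.3, 21.0 and 18.5 CPM in basal 1 to 3. All mixed and luminal libraries lay far above the basal ones and overlapped each other. The log2 difference was 3.19 ± 0.26 between mixed and basal aggregates (adjusted p = 3e-05, and 3.01 ± 0.25 within series A), 3.56 ± 0.26 between luminal and basal aggregates (adjusted p = 2e-06, and 4.16 ± 0.22 within series B) and -0.38 ± 0.23 between mixed and luminal aggregates (adjusted p = 0.24). The mixed mean of 169 ± 20.0 CPM was 1.42 times the midpoint of the pure kinds. Of the exon bases of Atp1b1 18.7% are shared with the neighbouring gene Nme7, and reads that overlap exons of both were not counted under the options in the header.

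Atp1b3, which encodes another beta subunit, had the other direction. It stood at 305 ± 10.2 CPM in mixed, 152 ± 7.84 CPM in luminal and 433 ± 107 CPM in basal aggregates, lower in luminal than in basal (-1.51 ± 0.19) and higher in mixed than in luminal aggregates (1.01 ± 0.18, and 0.49 with the series as a term). The FXYD genes encode small regulators of the pump. Fxyd6 stood at 136 ± 40.3 CPM in mixed, 304 ± 67.1 CPM in luminal and 33.0 ± 2.80 CPM in basal aggregates (2.04 ± 0.25 for mixed and 3.20 ± 0.26 for luminal against basal, -1.16 ± 0.24 for mixed against luminal), and Fxyd2 was higher in mixed (2.32 ± 0.51, adjusted p = 0.13 within series A) and in luminal (2.64 ± 0.52) than in basal aggregates. Of 8 tested genes of this list 3 were higher and 1 lower in both comparisons with basal aggregates. Of all genes 12.8% were called higher and 14.4% lower in luminal minus basal, and 6.39% and 7.33% in mixed minus basal.

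**Figure D3:**
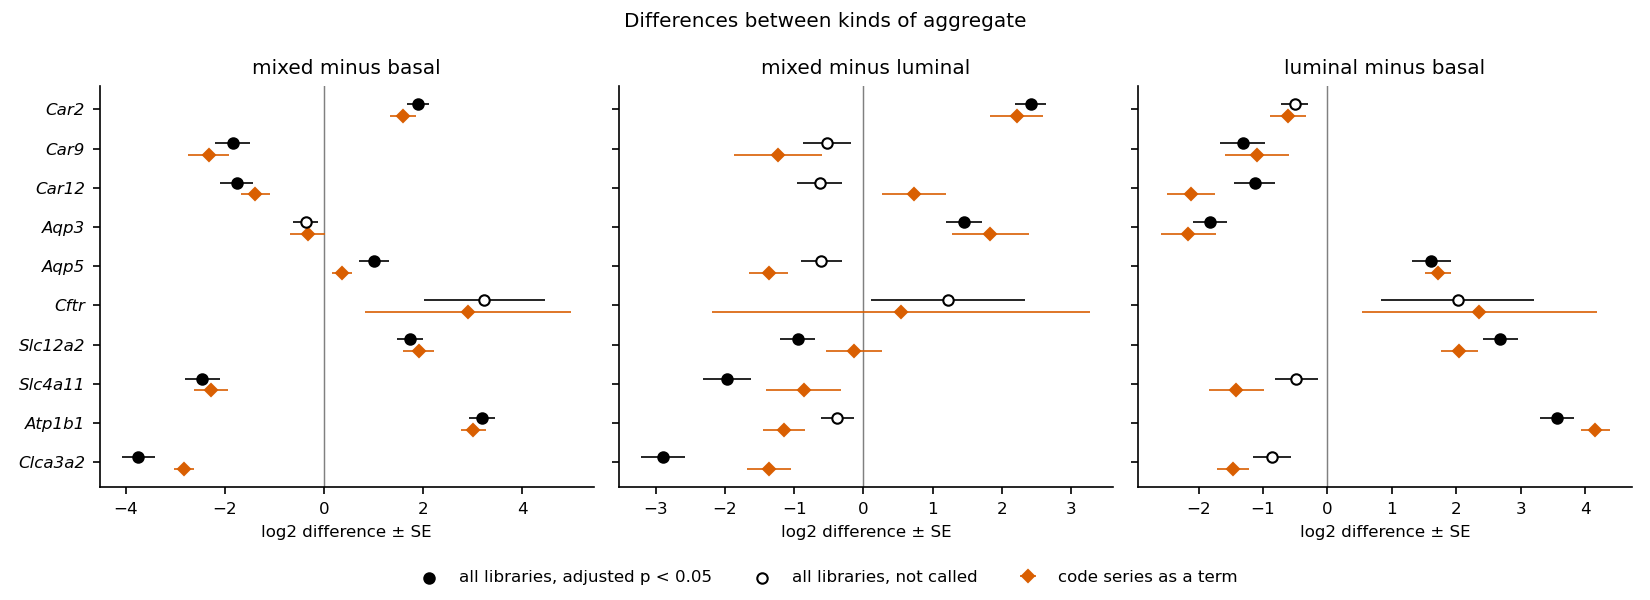
Log2 differences ± SE (x axis) of the 10 transport genes (y axis) for mixed minus basal, mixed minus luminal and luminal minus basal aggregates, from all 9 libraries (circles, filled where the adjusted p was below 0.05) and with the code series as a term (diamonds). Signs are shared by both fits for all 10 genes in the comparisons with basal aggregates, and for all but Car12 in mixed minus luminal.

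Counted over the 10 genes, mixed aggregates had 4 higher and 4 lower than basal ones (median 0.32), where 13.7% of all genes were called (6.39% and 7.33%). In luminal against basal aggregates 3 were higher and 3 lower (median -0.50), where 27.1% of all genes were called (12.8% and 14.4%), and in mixed against luminal aggregates 2 were higher and 3 lower (median -0.57), where 29.4% were called (15.2% and 14.2%). Nothing is read from these counts, because the genes were chosen with these contrasts known. The 3 comparisons share their libraries and are not independent. Library ranges of mixed and basal aggregates did not overlap for 8 genes, 4 in each direction (33.1% of all genes, 14.5% higher and 18.7% lower), those of luminal and basal aggregates for 8, 4 in each direction (46.6%, with 23.2% and 23.4%), and those of mixed and luminal aggregates for 2 higher and 4 lower (51.1%, with 25.1% and 26.0%). With the code series as a term 3 genes were called higher and 4 lower within series A (4.73% of all genes called), 3 and 3 within series B (13.9%), and 1 and 1 between mixed and luminal aggregates (2.72%). Within series B the 3 lower genes were Car12, Aqp3 and Clca3a2, against Car9, Car12 and Aqp3 over all libraries. Leaving out luminal 1 reduced the genes lower in luminal than in basal aggregates to 1, Aqp3.

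Per length, as TPM (counts divided by the summed exon length in the table and scaled to a common total), Aqp5 was the most abundant of the 10 genes in mixed (282 ± 36.4 TPM) and luminal aggregates (534 ± 90.8 TPM), and its libraries lay apart from those of the next gene. In basal aggregates Clca3a2 (202 ± 108 TPM) and Aqp5 (169 ± 44.6 TPM) led with overlapping ranges. In mixed aggregates Atp1b1 (113 ± 19.7 TPM) and Slc12a2 (112 ± 22.1 TPM) came next and overlapped, followed by Car2 (48.5 ± 4.07 TPM) and Aqp3 (48.0 ± 14.4 TPM), which also overlapped, then by Car12 (13.4 TPM), Clca3a2 (11.2 TPM) and Car9 (7.80 TPM), each overlapping its neighbour, and by Slc4a11 (2.35 TPM) and Cftr (0.651 TPM). In luminal aggregates Slc12a2 (272 ± 115 TPM), Atp1b1 (183 ± 72.4 TPM) and Clca3a2 (104 ± 32.8 TPM) followed Aqp5 with overlap between neighbours, Car12 (26.3 TPM) overlapped Aqp3 (22.2 TPM), and Car9 (14.3 TPM), Slc4a11 (11.7 TPM) and Car2 (11.3 TPM) overlapped in turn above Cftr (0.352 TPM). In basal aggregates Aqp3 (79.7 TPM), Car12 (59.8 TPM), Slc12a2 (43.8 TPM) and Car9 (34.8 TPM) overlapped in turn, and Slc4a11 (16.8 TPM), Car2 (16.2 TPM) and Atp1b1 (15.6 TPM) did so above Cftr (0.0836 TPM). Of the 3 carbonic anhydrases, Car2 thus had the highest TPM in mixed aggregates and the lowest in both pure kinds.

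**Figure D4:**
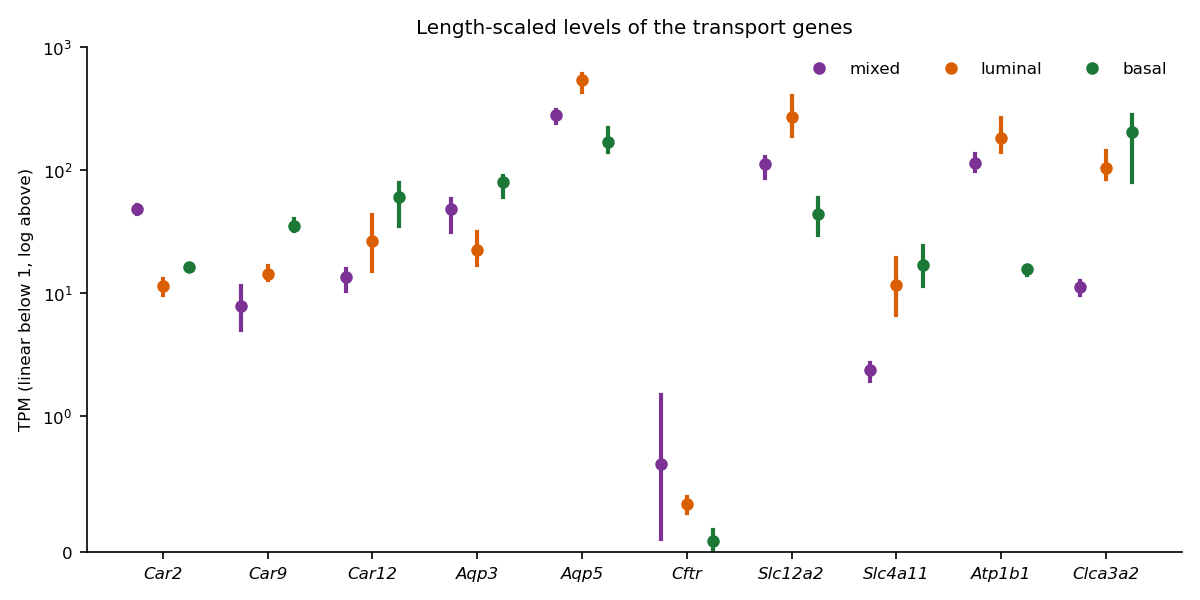
Length-scaled levels of the 10 transport genes in mixed, luminal and basal aggregates, as TPM (y axis, linear below 1 and logarithmic above), with points for means and bars from the lowest to the highest of 3 libraries. Aqp5 leads in mixed and luminal aggregates and Cftr is lowest in all 3 kinds.

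Sodium channel genes and other lists of the transport pathway were compared in the same fit. Over 10 lists with 157 gene names outside the set, 155 were measured and 121 tested. Of these, luminal aggregates had 40 (33.1%) higher and 14 (11.6%) lower than basal ones, and mixed aggregates had 20 (16.5%) higher and 10 (8.26%) lower than basal and 9 (7.44%) higher and 31 (25.6%) lower than luminal ones, of which 28 and 3, 9 and 3, and 0 and 2 remained called with the series as a term, the last 2 being Clic6 and Vegfa. These shares are to be read beside the shares of all genes given above. Of 11 genes of the epithelial sodium channel and its regulators luminal aggregates had 7 higher and none lower than basal ones (median 1.37), and mixed aggregates had 2 higher than basal and 4 lower than luminal ones. Scnn1b, the beta subunit of the channel, stood at 4.98 ± 1.77 CPM in mixed, 20.6 ± 1.61 CPM in luminal and 0.173 ± 0.177 CPM in basal aggregates, where it rested on 7, 3 and 0 counts (log2 4.75 ± 0.63 for mixed and 6.80 ± 0.66 for luminal against basal, -2.05 ± 0.49 for mixed against luminal). Tmprss2, a membrane serine protease gene, was higher in luminal than in basal (2.86 ± 0.34) and lower in mixed than in luminal aggregates (-1.83 ± 0.33, and -0.20 with the series as a term). Nedd4l, a ubiquitin ligase that removes the channel, was higher in mixed than in basal aggregates (0.85 ± 0.22, and 1.35 within series A). Its mean was highest in luminal aggregates, with 97.6 ± 11.5 CPM in mixed, 312 ± 55.6 CPM in luminal and 54.2 ± 14.3 CPM in basal ones.

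Proton and lactate exporters were a further list. Of 12 tested, luminal aggregates had 4 higher and 3 lower than basal ones. Mixed aggregates had 1 higher than basal, and 2 higher and 4 lower than luminal ones. Of all genes 12.8% were called higher and 14.4% lower in luminal minus basal. The shares were 6.39% and 7.33% in mixed minus basal, and 15.2% and 14.2% in mixed minus luminal. Slc16a3, the lactate exporter MCT4, stood at 5.50 ± 4.09 CPM in mixed, 29.6 ± 8.76 CPM in luminal and 1.53 ± 0.326 CPM in basal aggregates (4.27 ± 0.67 for luminal against basal and -2.43 ± 0.61 for mixed against luminal). Slc16a1, the lactate carrier MCT1, had the other direction, with 52.2 ± 3.72 CPM in mixed, 26.7 ± 5.65 CPM in luminal and 54.8 ± 6.24 CPM in basal aggregates (-1.04 ± 0.19 for luminal against basal and 0.97 ± 0.19 for mixed against luminal). Slc9a2, a sodium proton exchanger, was higher in mixed (3.27 ± 0.67) and luminal (5.06 ± 0.71) than in basal aggregates and lower in mixed than in luminal aggregates (-1.79 ± 0.59), with the call against basal aggregates kept for luminal and lost for mixed aggregates with the series as a term (adjusted p = 0.14). Of 10 tested epithelial potassium channel genes luminal aggregates had 2 higher and 1 lower than basal ones. Mixed aggregates had 1 higher than basal and 1 higher than luminal ones. These counts are to be read beside the same shares of all genes. Kcnk5, an alkaline-sensitive background channel, was the one higher in both mixed (1.54 ± 0.33) and luminal (2.40 ± 0.33, and 1.47 within series B) than in basal aggregates.

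**Figure D5:**
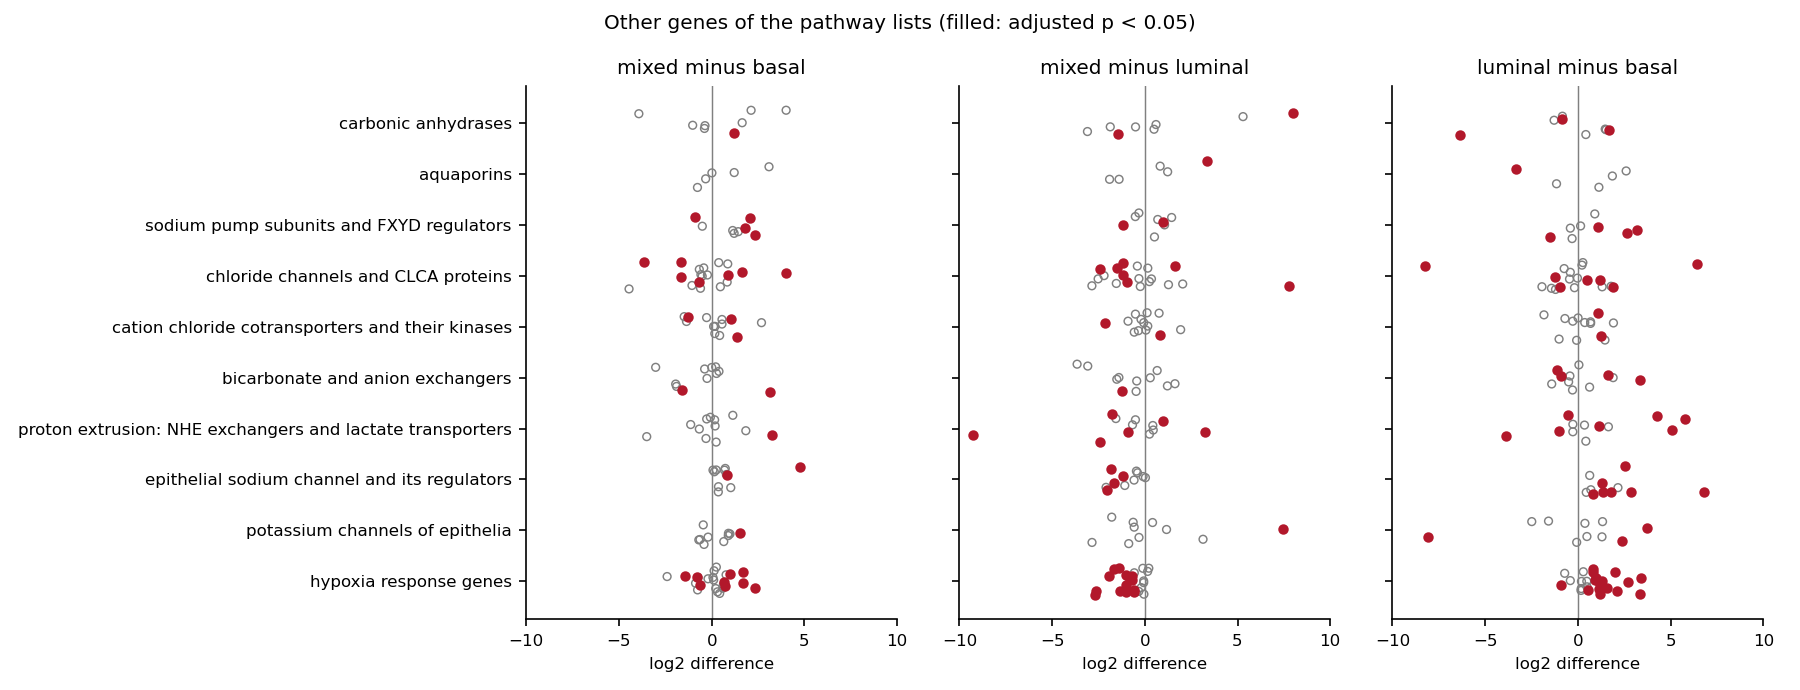
Log2 differences (x axis) of the tested genes of 10 pathway lists (y axis, 1 point per gene, spread vertically for legibility) for mixed minus basal, mixed minus luminal and luminal minus basal aggregates, filled where the adjusted p was below 0.05. Sodium channel and hypoxia genes lie mostly right of 0 in luminal minus basal (7 of 11 and 15 of 24 called higher, beside 12.8% of all genes) and left of 0 in mixed minus luminal.

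The genes whose log2 CPM followed those of the set most closely over the 9 libraries were found among 10609 abundant genes by Pearson correlation, given as a description, since all points share the same libraries, series and groups. The nearest to Car2 was Tns3 (r = 0.98), with means of 44.0 CPM in mixed, 16.7 CPM in luminal and 20.3 CPM in basal aggregates. Those nearest to Clca3a2 were Foxred1 (0.99) and Med16 (0.98), and Foxred1 was also among the nearest to Slc4a11 (0.97, beside Def8 at 0.97). Padi4 and Tfcp2l1 were nearest to Slc12a2 (0.99 each), Stxbp6 and Samhd1 to Atp1b1 (0.995 each), Atp6v0c-ps2 (0.995) and Wbp2 (0.98) to Aqp5, and Pbx3 and Cenpl to Aqp3 (0.98 each). Stac2 (0.97) and Irf2bp1 (0.96) were nearest to Car9, Adam8 and Zfp185 (0.98 and 0.97) to Car12, and Dnttip1 (0.95) and Sde2 (0.93) to Cftr. Within the set Clca3a2 and Slc4a11 had r = 0.96, Clca3a2 and Car2 -0.90, and Slc12a2 and Atp1b1 0.89.

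On mm39, by the exon coordinates of the table, Car2 lies on chromosome 3 (14951333 to 14965830) and Clca3a2 on the same chromosome (144502320 to 144525255). Car9 and Aqp3 lie on chromosome 4 (43506966 to 43513729 and 41092722 to 41098183), Car12 on chromosome 9 (66620968 to 66674127), Aqp5 on chromosome 15 (99488663 to 99492710), Cftr on chromosome 6 (18170686 to 18322767), Slc4a11 on chromosome 2 (130526033 to 130539439), Atp1b1 on chromosome 1 (164264678 to 164285924) and Slc12a2 on chromosome 18. Counts cover all exons of a gene name.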

How the data were processed

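RNA of 9 aggregate samples was sequenced from stranded mRNA libraries. The deposited table gives, for each gene name, unnormalised counts made by the authors and a summed exon length. Per the file headers, read pairs were counted over exons with featureCounts 2.0.1, with no strand option and without multi-mapping reads. Per the submitters' processing notes Trim Galore, Subread and the build mm39 were used. The annotation release is not given in the sources used here. Groups and replicate numbers follow the titles.

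In R 4.3.3, genes passing filterByExpr (18051) were fitted with edgeR 4.0.16 (TMM, quasi-likelihood, robust, two-sided) over all 9 libraries with the group as factor and 6 residual degrees of freedom, or 4 with the code series as a term. P-values were adjusted by Benjamini-Hochberg over all tested genes, with a threshold of 0.05. The SE follows from the log2 difference and its F statistic. For correlations, log2 CPM had 2 as prior count. The members and the gene lists were chosen with earlier results of these data known. Named list genes are the 2 highest and 2 lowest called differences per list and contrast at a mean of at least 5 CPM. Genes most like a member needed 10 CPM. Some genes that these rules name are not reported here. The scripts were tested on simulated data. Alternatives were DESeq2 1.42.0, limma-voom (limma 3.58.1), other scalings and filters, pairwise fits, a replicate block, the code series and each library left out.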

Additional observations from a re-analysis of the deposited data

How the results depend on the processing

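The differences of the 10 transport genes were recomputed under every alternative. Leaving out 1 library at a time kept direction and side of the threshold in 249 values, ended 16 calls, added 4 and turned 1 sign, that of Cftr between mixed and luminal aggregates (-0.32 without mixed 1, with -0.32 to 1.72 as the range over libraries left out). Under the other settings 220 values kept both, 7 calls ended, 11 were added and 1 sign turned, that of Car12 between mixed and luminal aggregates (0.73 with the code series as a term). The causes were not tested.

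With library size alone as scaling the median log2 difference over all genes was -0.17 in luminal minus basal, beside -0.02 with TMM factors. It was -0.22 beside -0.07 in mixed minus basal, and -0.06 beside -0.05 in mixed minus luminal. Under this scaling 5 transport genes were lower in luminal minus basal and 17 pathway list genes lower in mixed minus basal. With no filter on low counts, mixed minus basal gave 2190 genes lower and 32 and 19 list genes higher and lower, mixed minus luminal 5 transport genes lower and 15 list genes higher, and mixed aggregates lay above both pure kinds for 290 genes and below for 600, 2 of them transport genes. DESeq2 gave 2340 genes and 21 list genes lower in mixed minus basal, and 145 above and 477 below both, 2 of the last being transport genes. With limma-voom 25 genes lay above both.

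With the code series as a term luminal minus basal had 1280 genes higher and 1227 lower, with 4 list genes lower. Mixed minus basal had 529 and 324, with 11 and 5 list genes. Mixed minus luminal had 370 and 121, with 1 and 1 transport genes and 1 and 3 list genes. For mixed aggregates outside both pure kinds, edgeR then called 0 genes above and 0 below (328 and 217 at an unadjusted p under 0.05), and 0 transport genes.

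With 1 library left out, transport genes lower in luminal minus basal numbered 1 to 4 and list genes lower 6 to 14. In mixed minus basal 558 to 2627 genes were higher and 405 to 2493 lower, the fewest without basal 3 and the most without basal 2, with 13 to 28 list genes higher and 3 to 17 lower. In mixed minus luminal 1550 to 3400 genes were higher and 1417 to 3374 lower, the fewest without luminal 3. Mixed aggregates lay above both kinds for 1 to 580 genes and below for 0 to 671, with 0 to 1 and 0 to 2 transport genes.

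For a look at pairing, the mean of each group was subtracted from the log2 CPM of each gene. By the replicate numbers of the titles, what remained correlated at -0.17 to 0.20 between same-numbered libraries of different groups. For 4 of 9 libraries the best correlate in another group had their own number. The column names carry other numbers for some basal and all luminal libraries. These correlations therefore cannot decide whether libraries were paired. With the replicate block the counts of transport genes were 3 higher and 3 lower (luminal minus basal), 4 and 4 (mixed minus basal) and 2 and 3 (mixed minus luminal), and 2 genes lay below both pure kinds.

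The number of libraries (3 a group), the low counts of Cftr and the overlap of code series and kind of aggregate limit these values.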
